A study of Homo sapiens with 13 samples.

Results

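PIM1, PIM2, SGK1 and RPS6KB1, 4 serine/threonine kinases of cell survival and growth, were followed on 13 arrays of myeloma cell lines in which the transcription factor IRF4 was knocked down. They were chosen by gene symbol (SGK1 also under its older symbol SGK), and partly from measured values, namely the low late values of PIM2 and the high late values of SGK1 in the KMS12 line. Of the 4604 named genes on the array these 4 had 14 of the 15246 features: PIM1 4, PIM2 2, SGK1 4 and RPS6KB1 4. A feature is 1 spotted cDNA clone, and the 11 member features that were measured often enough were tested as gene means. The other 3 are given by value.

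KMS12, H929 and SKMM1 are established cell lines of myeloma, a plasma cell cancer. Each array compared 2 infected cultures of 1 line, one with a doxycycline-inducible hairpin against IRF4 (shi, Cy5) and one with a control hairpin against luciferase (shluc, Cy3). Both hairpin cultures were untreated, or were taken at the same day of induction at a labelled dose of 20 ng/ml doxycycline. In KMS12 the series labelled 1332 was sampled untreated and at days 3, 5 and 7, while the series 1332b and 2046 were each sampled untreated and at days 2 and 4. The 3 untreated arrays, the 3 arrays of days 2-3 and the 3 arrays of days 4-5 formed the KMS12 groups, and day 7 was 1 array. H929 (2 repeat arrays) and SKMM1 (1 array) carried the hairpin 2046 and were taken at day 4. Whether repeats were grown separately is not in the labels, so each p-value reflects the spread of these hybridisations and no more.

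PIM1 and PIM2 are constitutively active kinases that are controlled mainly through the amount of their mRNA and protein. Cytokine receptors raise them through STAT factors, and they promote survival and protein synthesis, with PIM2 known as a kinase on which many myeloma cells depend. SGK1 is a relative of AKT in the AGC kinase family, activated downstream of phosphoinositide 3-kinase and mTOR complex 2 and rapidly induced by glucocorticoids and stress. RPS6KB1 encodes S6 kinase 1, an AGC kinase that mTOR complex 1 activates to promote translation.

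The start regions of the members are shown because mRNA is made from such starts, and IRF4 itself binds DNA at interferon-type and composite elements. They come from RefSeq on GRCh38.p14 and run from 250 bases before to 50 bases after the start, 5′ to 3′ on the gene's strand. All 4 genes were found by symbol, SGK1 with 3 starts. Which of these starts gave the measured SGK1 mRNA is not known from the arrays. Capitals mark matches to a searched motif on either strand, and the regions are PIM2 at chrX:48918975-48919274 (minus strand), SGK1 at its most upstream start at chr6:134318063-134318362 (minus strand) and RPS6KB1 at chr17:59892871-59893170 (plus strand).
PIM2: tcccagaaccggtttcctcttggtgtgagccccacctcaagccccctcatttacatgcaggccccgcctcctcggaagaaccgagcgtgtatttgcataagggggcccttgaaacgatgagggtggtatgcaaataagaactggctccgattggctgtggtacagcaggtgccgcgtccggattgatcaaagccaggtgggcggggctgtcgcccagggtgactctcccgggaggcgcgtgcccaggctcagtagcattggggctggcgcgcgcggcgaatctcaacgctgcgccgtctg
SGK1: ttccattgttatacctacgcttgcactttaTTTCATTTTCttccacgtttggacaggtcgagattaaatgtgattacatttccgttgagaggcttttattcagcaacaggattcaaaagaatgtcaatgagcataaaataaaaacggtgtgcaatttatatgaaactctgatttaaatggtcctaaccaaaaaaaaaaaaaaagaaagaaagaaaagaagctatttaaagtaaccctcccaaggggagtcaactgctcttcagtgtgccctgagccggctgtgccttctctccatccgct
RPS6KB1: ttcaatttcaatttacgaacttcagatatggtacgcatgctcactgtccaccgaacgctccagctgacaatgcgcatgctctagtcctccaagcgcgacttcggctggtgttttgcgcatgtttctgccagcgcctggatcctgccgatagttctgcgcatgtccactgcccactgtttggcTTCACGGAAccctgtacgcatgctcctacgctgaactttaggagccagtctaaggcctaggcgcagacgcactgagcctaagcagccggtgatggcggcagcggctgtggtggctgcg
The motifs were the interferon-type core GAAANNGAAA, the ETS-IRF composite core GGAANNGAAA, the STAT site TTCNNNGAA, the glucocorticoid receptor site GNACANNNTGTNC and the FOXO site TGTTTAC. SGK1 held 1 GAAANNGAAA match, read on the opposite strand, at bases -220 to -211 of this start and none at its other 2 starts. RPS6KB1 held 1 TTCNNNGAA match at bases -68 to -60, which reads the same on both strands. Neither PIM2 nor PIM1, whose window had a GC content of 79.7%, held any of the 5. Among 35116 promoter windows of the same length, GAAANNGAAA occurred in 3.57%, GGAANNGAAA in 2.82%, TTCNNNGAA in 7.66%, GNACANNNTGTNC in 0.39% and TGTTTAC in 3.42%. The 2 interferon-type and composite motifs can overlap. A match describes letters only and is not a bound site.

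Values are log2 ratios of IRF4 hairpin over control after each array was centred on its median, so a value below 0 means less of that mRNA in the IRF4 hairpin culture relative to the median gene. Percentages of control are the same ratios on a linear scale. The arrays measured 7140 to 14228 features each, and no array held the level of a gene apart from this ratio. IRF4 stood at 29.1% to 48.8% of control in KMS12 at days 2-3, at 59.5% to 66.5% at days 4-5 and at 24.6% to 28.9% in H929 and SKMM1, against 109% to 118% in the untreated arrays. In the limma fit IRF4 fell in H929 and SKMM1 (log2 -1.95, SE 0.16, adjusted p = 0.000271), and its KMS12 difference at days 2-3 was -1.50 (adjusted p = 0.0764). In such bulk RNA, fewer cells of a kind and less RNA per cell cannot be told apart. The SKMM1 array and the untreated array of series 2046 had the lowest correlation of any pair (r = -0.30 over 3950 tested genes with a value on both), and the 2 H929 repeats correlated at 0.66.

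**Figure D1:**
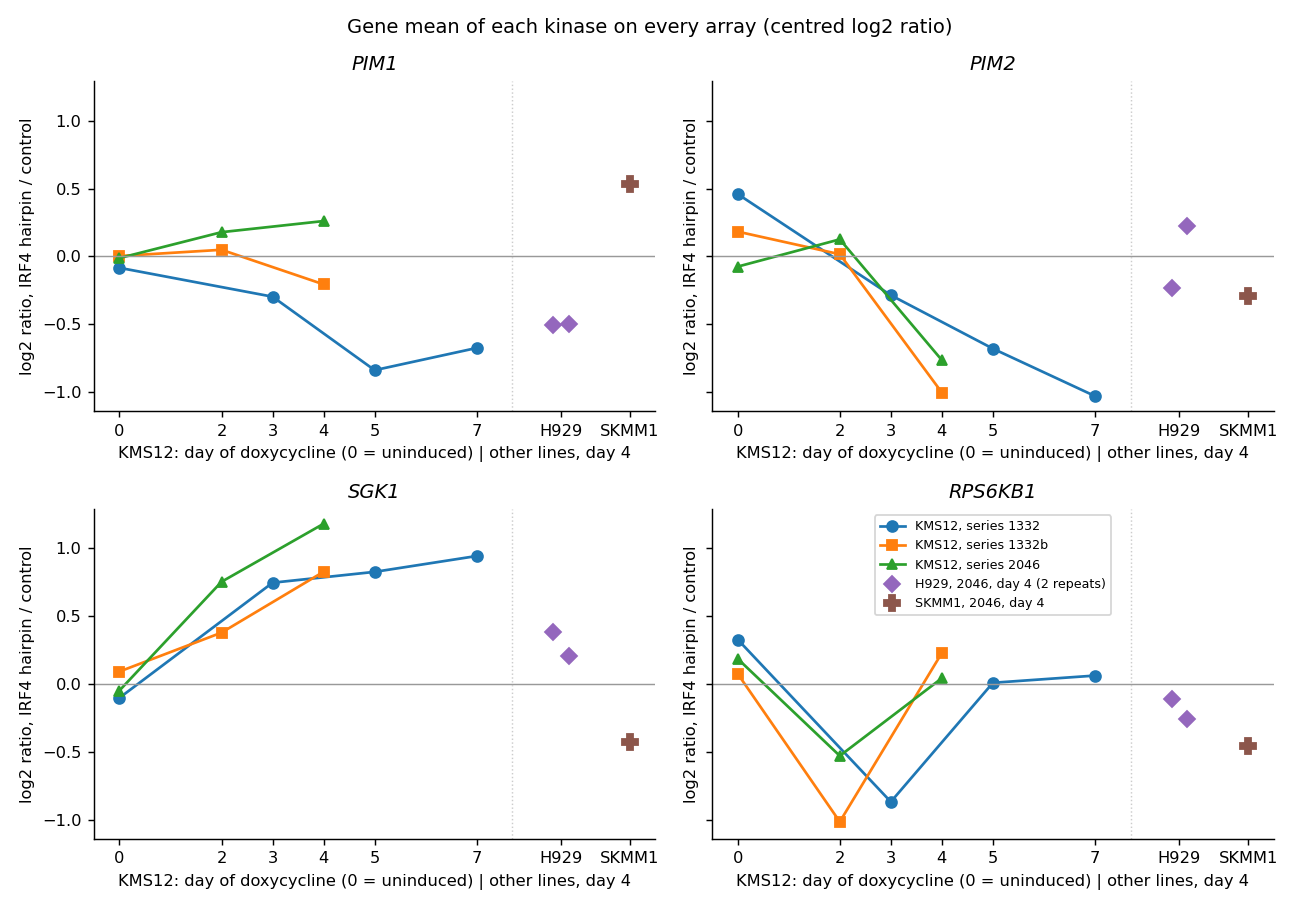
Each panel plots the centred log2 ratio of 1 kinase (vertical axis, IRF4 hairpin over control) on all 13 arrays, by day of doxycycline in the 3 KMS12 series (joined points) and, to the right, at day 4 in H929 and SKMM1. PIM2 lies below -0.6 on every KMS12 array from day 4 on, SGK1 is above 0.3 on every induced KMS12 array, RPS6KB1 is low at days 2-3 only within KMS12, and PIM1 runs in different directions in the series.

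PIM2, the PIM kinase that myeloma cells rely on, was near the control level early in KMS12 and below it late (49.8% to 62.4% of control). On the untreated arrays of series 1332, 1332b and 2046 its log2 ratio was 0.46, 0.18 and -0.08. At days 2-3 the same series gave -0.29, 0.02 and 0.13, and at days 4-5 they gave -0.68, -1.01 and -0.77. Every array of days 4-5 was thus below every untreated and every early array, while the early and untreated arrays overlapped. In terms of control, PIM2 stood at 62.4%, 49.8% and 58.8% in these series at days 4-5 and at 48.9% on the day 7 array of series 1332. These late values helped to choose the gene, so they are a description. The mean of days 4-5 was -0.82 ± 0.17 (SD, n = 3) against 0.19 ± 0.27 untreated, a difference of -1.01 on the log2 scale or 2.01-fold. Of the genes tested 0.296% had a lower difference, a rank that follows in part from choosing PIM2 on these values. For comparison, 5.69% of genes measured on all 6 arrays had their late arrays below all untreated ones.

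The early difference of PIM2 was -0.24 (SE 0.22) and did not pass (limma adjusted p = 0.505). Within the series it was -0.75 in 1332, -0.17 in 1332b and 0.20 in 2046, so the series did not share a direction. Without the untreated array of series 1332 the early difference was -0.10, without that series' day 3 array -0.12, and without the untreated array of series 2046 -0.37. The late difference was on the same side in all 3 series, at -1.14, -1.19 and -0.69. Both PIM2 clones gave it, with -0.86 and -1.03, and their values ran together over the 11 arrays that had both (r = 0.98, arrays that share lines and series). These late values helped to choose PIM2, so the likeness of series and clones is a description and no separate support. From days 2-3 to days 4-5 the gene mean moved by -0.77, given without a test because the late arrays chose it.

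The arrays of H929 and SKMM1 played no part in choosing PIM2. In H929 it stood at -0.23 and 0.23 on the 2 repeats, and in SKMM1 at -0.29. The 2 H929 repeats lay on opposite sides of 0, and the SKMM1 value was above all 3 late KMS12 arrays. Over both lines the log2 ratio was -0.15 (SE 0.17, limma adjusted p = 0.544), and in H929 alone it was 0.00 (SE 0.19, adjusted p = 0.992). In order from low to high, PIM2 stood at -1.03 at day 7, -0.82 at days 4-5, -0.29 in SKMM1, -0.05 at days 2-3, 0.00 in H929 and 0.19 untreated. Day 7 lay just below the late range, and the groups from days 2-3 upward overlapped with their neighbours.

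PIM1, the first PIM kinase found as a viral insertion target in mouse lymphoma, showed no common course. Untreated arrays gave -0.09, 0.00 and -0.01, days 2-3 gave -0.30, 0.05 and 0.18, and days 4-5 gave -0.84, -0.21 and 0.26, each in the order 1332, 1332b and 2046. The groups overlapped in all 3 comparisons of KMS12 windows. Series 1332 was below 0 on every array, reaching 55.9% of control at day 5 and 62.6% at day 7, whereas series 2046 stood at 120% at day 4. The early difference was 0.01 (SE 0.26, limma adjusted p = 0.989). The late difference of -0.23 (SE 0.26) is a description, and it was 0.06 without the series 1332 array of day 5. From days 2-3 to days 4-5 the difference was -0.24 (SE 0.26, adjusted p = 0.64), and without that array it was 0.05.

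H929 and SKMM1 stood on opposite sides of 0 for PIM1. H929 gave -0.50 on both repeats (70.5% and 70.8% of control) and SKMM1 gave 0.53 (145%). All 4 PIM1 clones were below 0 in H929, from -0.64 to -0.14, and all 4 were above 0 in SKMM1, from 0.44 to 0.59. The H929 mean was -0.50 (SE 0.23) and did not pass (limma adjusted p = 0.191). The mean of both lines, 0.01 (SE 0.20, adjusted p = 0.963), averages these opposite values, and the difference between the lines was not tested with 1 SKMM1 array. Within an array the PIM1 clones had a median spread of 0.61 between highest and lowest clone, with the widest, 1.16, on the day 7 array. This was the largest median spread of the members (0.48 for SGK1, 0.12 for RPS6KB1 and 0.05 for PIM2). Such a spread grows with the number of clones, and PIM1 had 4 tested, SGK1 3 and the others 2 each.

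SGK1, the glucocorticoid- and stress-induced AGC kinase, stood above control on every induced KMS12 array. Its untreated values were -0.10, 0.09 and -0.05, its values at days 2-3 were 0.75, 0.38 and 0.75, and its values at days 4-5 were 0.83, 0.83 and 1.18. The 3 groups did not overlap: every early array was above every untreated one, and every late array was above every early one. In terms of control this is 130% to 169% early and 177% to 227% late, with 192% at day 7. Among genes measured on all arrays concerned, 13.2% lay above without overlap at days 2-3 against untreated, 5.47% at days 4-5 against untreated and 11.5% at days 4-5 against days 2-3. The late values chose the gene, so the late difference of 0.97 (1.95-fold, SE 0.19) carries no test.

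The early difference of SGK1 was not used in choosing it, but it shares the untreated arrays with the late one. It was 0.65 (SE 0.19) and did not pass (limma adjusted p = 0.0858, and 0.0783 to 0.278 over the alternative fits that kept the untreated arrays as baseline). Taken against 0 in place of the untreated arrays, the early mean of 0.63 passed (adjusted p = 0.0179), as did 904 of 4728 genes in all. The 3 series gave early differences of 0.85, 0.29 and 0.80. The 3 tested clones were all higher, by 0.44 to 0.90 early and by 0.63 to 1.25 late, and their values correlated at 0.77 to 0.85 over 12 or 13 arrays. The late values helped to choose SGK1, so the likeness of its clones there is a description. The fourth clone had values on 2 arrays alone, 1.24 at day 3 and 1.79 at day 5 of series 1332.

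In the other lines SGK1 stood at 0.38 and 0.21 in the H929 repeats and at -0.43 in SKMM1. H929 was above 0 on both repeats, and SKMM1 was below every untreated KMS12 array, with all 3 clones between -0.51 and -0.38. The H929 mean of 0.29 (SE 0.17) did not pass (limma adjusted p = 0.295). Over both lines the value was -0.07 (SE 0.15, adjusted p = 0.771), again a mean of opposite lines. From low to high the order was SKMM1 (-0.43), untreated KMS12 (-0.02), H929 (0.29), days 2-3 (0.63), day 7 (0.94) and days 4-5 (0.95). H929 reached into the range of days 2-3, and day 7 lay inside the range of days 4-5.

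RPS6KB1, the gene of S6 kinase 1, was low at days 2-3 and back near the untreated level at days 4-5. Untreated arrays gave 0.33, 0.08 and 0.19, days 2-3 gave -0.87, -1.02 and -0.53, days 4-5 gave 0.01, 0.23 and 0.04, and day 7 gave 0.06. All 3 early arrays were below all untreated and all late arrays, while the late and untreated arrays overlapped. In terms of control the early arrays stood at 54.8%, 49.4% and 69.3% and the late ones at 101%, 117% and 103%. Among genes measured on all arrays concerned, 19% lay below without overlap at days 2-3 against untreated.

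The early difference was -1.001 (SE 0.19), or 2.00-fold, and did not pass (limma adjusted p = 0.0764), in a comparison with 0 calls among 4728 genes (0%) and 1222 unadjusted p-values under 0.05. That call changed when the array of series 2046 at day 2, the least low of the 3, was left out. Without it the difference was -1.14 (adjusted p = 0.0061), with 653 genes called. RPS6KB1 also passed at -1.21 without centring (adjusted p = 0.0407), at -0.94 among features present on all 13 arrays (adjusted p = 0.0479) and at -0.81 against 0 (adjusted p = 0.0129). Those 3 settings called 339 of 4728, 170 of 2257 and 904 of 4728 genes, so the passes were shared with many genes. Over the alternatives against the untreated arrays its adjusted p ran from 0.0061 to 0.233. By series the early difference was -1.20, -1.09 and -0.72. The rise of RPS6KB1 from the early to the late arrays was known when the members were chosen. The early difference rests on the same early arrays, so its p-values and passes are no independent evidence.

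The 2 tested RPS6KB1 clones gave early differences of -1.11 and -0.90, and the 2 clones left out for missing values gave -1.16 and -1.15. All 4 clones thus had a lower mean in the same window, but over unlike sets of arrays. Of the 2 left out, 1 had no value at day 3 of series 1332. The other had none on the untreated array of series 2046 and stood near control (-0.11) at day 2 of that series. The clones differed most at day 2 of series 1332b, by 0.84. Only 7.64% of the genes tested had a lower early difference.

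Between days 2-3 and days 4-5 RPS6KB1 stood 0.90 higher (SE 0.19, 1.86-fold) and did not pass (limma adjusted p = 0.176). This difference was known when the members were chosen, so its p is no independent evidence. This comparison had 0 calls among 4728 genes (0%) and 857 unadjusted p-values under 0.05. Without the day 2 array of series 2046 it was 1.04 (adjusted p = 0.0154), with 360 genes called. In this step 9.12% of genes had late arrays below all early ones, among them PIM2, and 11.5% had them above, among them SGK1 and RPS6KB1.

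In H929 RPS6KB1 stood at -0.11 and -0.26, and in SKMM1 at -0.46. All 3 arrays were below 0, where 31.3% of genes lay below 0 on all 3 arrays and 34.1% above. The mean of both lines was -0.32 (SE 0.14, limma adjusted p = 0.126) and that of H929 was -0.19 (SE 0.17, adjusted p = 0.51), so neither passed. From low to high the groups were days 2-3 (-0.81), SKMM1 (-0.46), H929 (-0.19), day 7 (0.06), days 4-5 (0.09) and untreated (0.20). SKMM1 lay just above the highest early KMS12 array, and the last 3 of these overlapped.

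**Figure D2:**
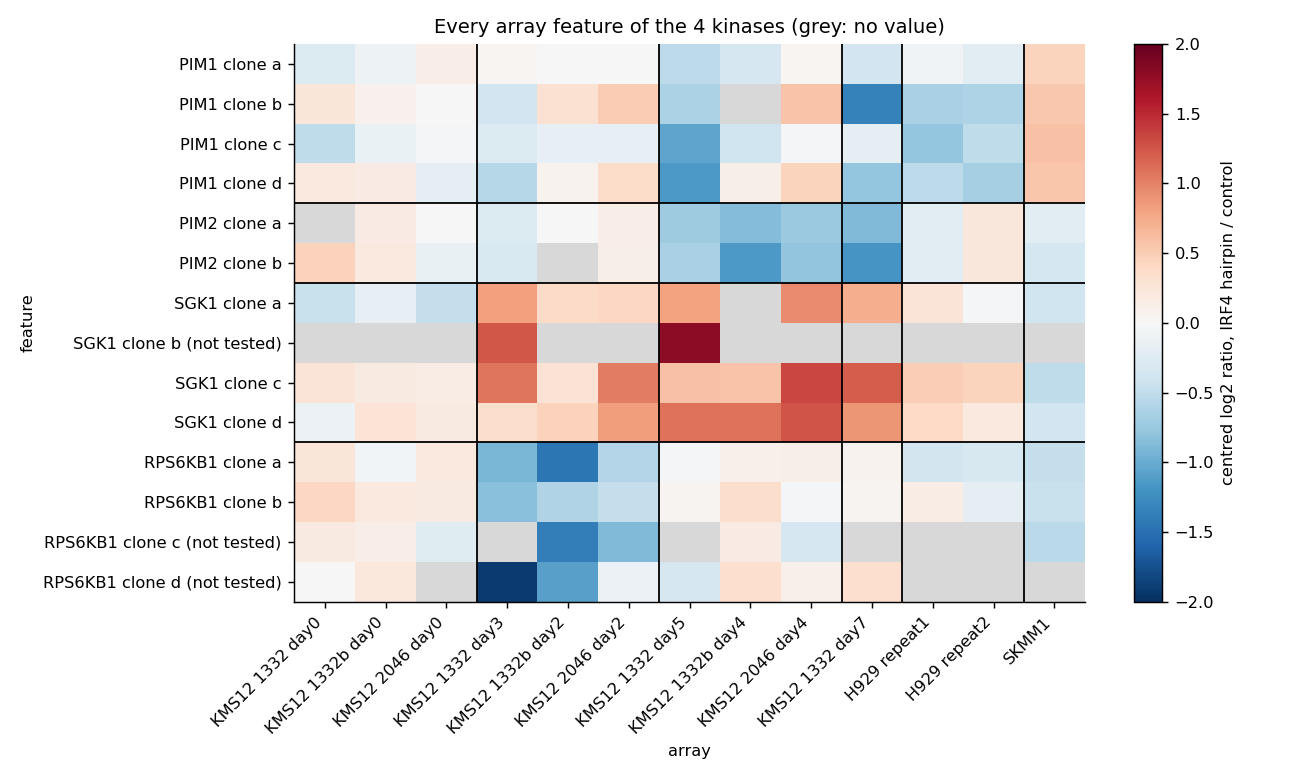
The colour of each cell is the centred log2 ratio (IRF4 hairpin over control) of 1 cDNA clone (rows, 14 in all, lettered within each gene) on 1 array (columns, grouped by window and line), and grey cells have no value. The RPS6KB1 clones are blue at days 2-3 where measured, though 1 untested clone is only faintly so at day 2 of series 2046 (-0.11). Both PIM2 clones are blue from day 4 on in KMS12, and the PIM1 clones turn from blue in H929 to red in SKMM1.

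At day 4 with the hairpin 2046 the 3 lines can be set side by side for each kinase. PIM2 stood at 58.8% of control in KMS12, at 85.1% and 117% in H929 and at 81.7% in SKMM1. SGK1 stood at 227% in KMS12, 130% and 115% in H929 and 74.4% in SKMM1. PIM1 stood at 120% in KMS12, 70.5% and 70.8% in H929 and 145% in SKMM1. The lines thus took a different order for each of these 3 genes, and KMS12 and SKMM1 have 1 array each. On these arrays IRF4 itself stood at 59.5% in KMS12, 28.9% and 25.7% in H929 and 24.6% in SKMM1. Cell line and depth of IRF4 loss therefore cannot be told apart between KMS12 and the other lines. RPS6KB1 stood at 103% in KMS12, 92.4% and 83.5% in H929 and 72.9% in SKMM1.

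None of the 4 kinases was among the genes called in the comparisons of H929 and SKMM1. In H929 and SKMM1 together 902 of 4124 genes (21.9%) passed, 581 lower and 321 higher (741 and 133 without centring), and in H929 alone 194 of 4607 (4.21%), 142 lower and 52 higher (195 and 29 without centring). The first count was 194 without SKMM1, 240 without H929 repeat 2 and 622 without H929 repeat 1. The count in H929 alone fell to 5 without repeat 2 and to 15 without repeat 1, so it rests on having both. On the untreated KMS12 arrays, where the hairpins had not been induced, 0 of 4728 genes (0%) passed against 0 and 379 unadjusted p-values were under 0.05. There PIM1 stood at -0.03, PIM2 at 0.19, SGK1 at -0.02 and RPS6KB1 at 0.20, with limma adjusted p-values from 0.689 to 0.97. No centring would move the median gene by -0.20 at days 2-3, by -0.15 at days 4-5 and by -0.13 in H929 and SKMM1, and all values here are relative to that median.

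**Figure D3:**
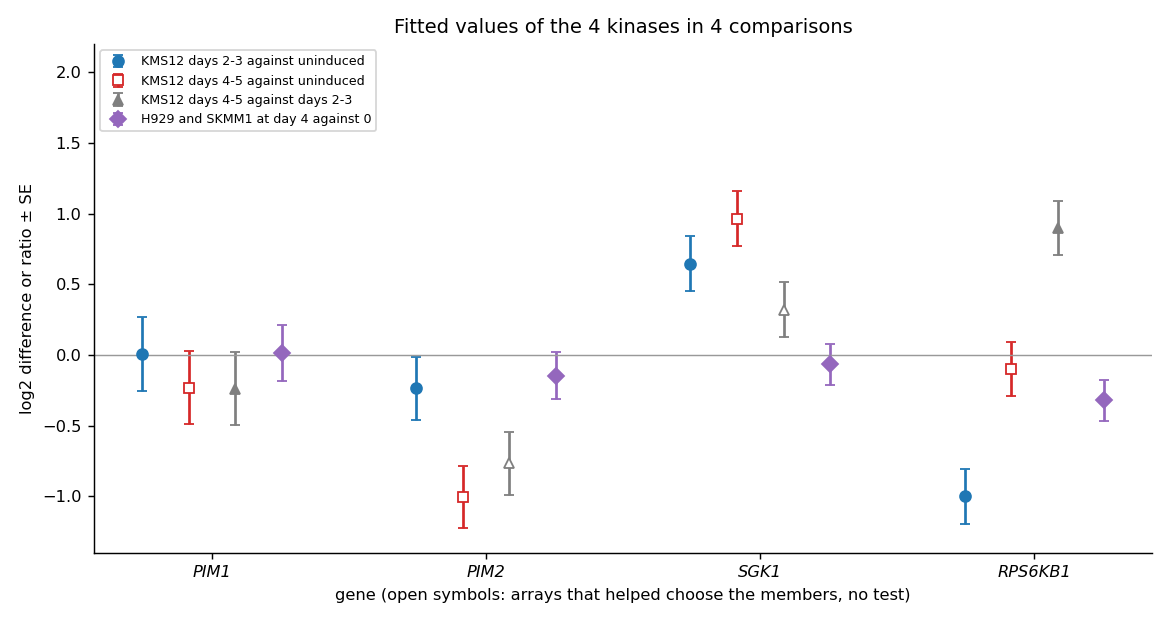
Points give the fitted log2 difference (KMS12 windows) or log2 ratio (H929 and SKMM1 against 0) of the 4 kinases in 4 comparisons, with bars of 1 SE, and open symbols mark values from arrays that helped to choose the members. The early RPS6KB1 value of -1.001 and the late PIM2 value of -1.01 are the lowest, and the values of H929 and SKMM1 lie between -0.32 and 0.01.

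The genes whose log2 ratios ran most like each kinase over the arrays were taken from 2251 named genes. PIM2 was closest to AARS1 (alanyl-tRNA synthetase, r = 0.83 over 12 arrays), THOC6 (a part of the mRNA export complex THO, 0.80 over 12) and PYCR1 (an enzyme of proline synthesis, 0.80 over 13). AARS1 stood at 0.20 untreated, 0.06 at days 2-3, -0.83 at days 4-5 and -1.18 at day 7, and at -0.18 in H929 and -0.06 in SKMM1. PYCR1 stood at 0.38 at days 2-3, -0.34 at days 4-5 and -0.81 at day 7. For SGK1 they were ID3 (an inhibitor of basic helix-loop-helix factors, 0.87 over 13), ABLIM1 (an actin-binding protein, 0.85 over 12) and CD53 (a leukocyte tetraspanin, 0.84 over 13). ID3 stood at 0.05 untreated, 0.70 at days 2-3, 0.78 at days 4-5 and 0.89 at day 7.

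RPS6KB1 had the closest companions, NAMPT (the enzyme that recycles nicotinamide into NAD, r = 0.96), TAF1D (a subunit of the RNA polymerase I factor SL1, 0.96) and GNG10 (a G protein gamma subunit, 0.94), each over 13 arrays. NAMPT stood at 0.30 untreated, -1.03 at days 2-3, -0.04 at days 4-5 and 0.09 at day 7, at -0.33 in H929 and at -0.97 in SKMM1. GNG10 stood at 0.04, -1.29, -0.10 and 0.43 in the same KMS12 order. For PIM1 the closest were LGALS1 (galectin 1, 0.78 over 13), FYN (a SRC family kinase, 0.78 over 13) and COX8A (a cytochrome oxidase subunit, 0.76 over 12). FYN stood at -0.53 at days 4-5 and -1.18 at day 7. These arrays share lines, series and windows, so the correlations describe likeness on this set alone.

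Between the kinases themselves the correlation over 13 arrays was -0.66 for PIM2 with SGK1 and 0.29 for PIM1 with PIM2. PIM2 and SGK1 were chosen partly for opposite late values in KMS12, and those arrays are among the 13. Their negative correlation therefore follows in part from that choice. It was -0.02 for RPS6KB1 with SGK1 and -0.21 for PIM2 with RPS6KB1. With IRF4 it was 0.68 for RPS6KB1 and between -0.03 and 0.04 for the other three kinases. IRF4, like RPS6KB1, stood lower at days 2-3 than at days 4-5 in KMS12.

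The pathways around the kinases were read from 7 gene lists, in which no gene passed at days 2-3, as none did among all genes. Over H929 and SKMM1 16 of 85 list genes passed (18.8%, beside 21.9% of all genes), each of which is named with its list. Of these 14 still passed without centring (INPPL1 and IL2RG did not), 10 without H929 repeat 1, 4 without H929 repeat 2 and 4 without SKMM1, and all kept their direction where they were measured. Without centring the day 2-3 medians of the S6 kinase, SGK1 and cytokine lists were -0.01, -0.03 and -0.16, and the day 4-5 medians of the mTOR, cytokine and SGK1 lists were -0.10, -0.15 and -0.02, on the other side of 0 from the centred medians. In H929 and SKMM1 the same held for the related kinase, mTOR, cytokine and PIM substrate lists (-0.13 to -0.09). The related kinases, with PIM3 and the AGC family, had 10 tested genes of 19, with a median difference of 0.00 at days 2-3 (5 below, 5 above), where the median of all genes was 0.05. At days 4-5 their median was -0.11 (8 below, 2 above) against 0.02 for all genes, with RPS6KA5 (the kinase MSK1) at -0.41 and PDPK1 (the kinase that activates AGC kinases) at -0.36, PKN2 at 0.00 and AKT2 at 0.28. In H929 and SKMM1 RPS6KA3 (the kinase RSK2) fell (-1.10, limma adjusted p = 0.00882), and it was the only one of the 8 measured in both lines to pass. That share can be read against the 21.9% of all genes.

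Of the phosphoinositide 3-kinase and mTOR chain, 19 of 36 genes were tested, with medians of -0.05 at days 2-3 (13 below, 6 above) and 0.06 at days 4-5 (7 below, 12 above). The mTOR kinase gene MTOR stood at -0.43 at days 4-5 and PPP2R1A, a scaffold of protein phosphatase 2A, at -0.26. RRAGD, a GTPase that recruits mTOR complex 1, stood at 0.84 and IRS2, the insulin receptor adaptor, at 0.90. At day 4 in H929 and SKMM1 PPP2CA, the catalytic subunit of that phosphatase, fell (-0.86, limma adjusted p = 0.00757) and INPPL1, a lipid phosphatase, rose (0.47, adjusted p = 0.0393). No other gene of this list passed.

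The S6 kinase and translation targets had 7 of 14 genes tested, with medians of 0.19 at days 2-3 (3 below, 4 above) and -0.21 at days 4-5 (5 below, 2 above). EIF4G1, the scaffold of the cap-binding complex, stood at -0.71 at days 4-5, EIF4EBP1 (the 4E-BP1 translation inhibitor) at -0.49, NCBP1 at 0.12 and EEF2K at 0.46. Across H929 and SKMM1 the cap-binding protein gene EIF4E fell (-1.55, limma adjusted p = 0.00218), as did RPS6, the ribosomal protein that S6 kinase phosphorylates (-0.55, adjusted p = 0.0334). CAD, the pyrimidine synthesis enzyme, rose (0.89, adjusted p = 0.00939). EIF4E also passed in H929 alone (-1.25, adjusted p = 0.0272), and RPS6 and CAD did not.

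Cytokine and JAK-STAT signalling drives PIM expression in many blood cells. The list for it mixes activating parts with inhibitors such as PIAS1, so its medians give no direction of signalling. It had 20 of 25 genes tested, with medians of 0.07 at days 2-3 (8 below, 12 above) and 0.02 at days 4-5 (9 below, 11 above). At days 4-5 the phosphatase PTPN6 stood at -0.79, STAT5B at -0.52, and the receptors IL6R and IL4R at 0.33 each. Of this list 4 of 19 genes passed in H929 and SKMM1, a share near that of all genes. IL6ST, the signalling chain of the interleukin 6 receptor, fell (-0.77, limma adjusted p = 0.0355), as did the STAT inhibitor PIAS1 (-0.53, adjusted p = 0.0282). STAT5A rose (0.76, adjusted p = 0.0119), as did the shared cytokine receptor chain IL2RG (0.56, adjusted p = 0.0423). Of these 4, PIAS1 passed in H929 alone (adjusted p = 0.0436).

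Among the genes of PIM substrates 18 of 24 were tested, with medians of 0.23 at days 2-3 (7 below, 11 above) and -0.06 at days 4-5 (10 below, 8 above), and without centring they were 0.02 and -0.19. MYC, whose protein PIM kinases stabilise, stood at -0.44 at days 4-5, CBX3 at 0.46 and the chemokine receptor gene CXCR4 at 0.78. Across H929 and SKMM1 MYC fell (-0.84, limma adjusted p = 0.0221), as did the stress kinase gene MAP3K5 (-0.85, adjusted p = 0.0301) and the cell cycle inhibitor gene CDKN1B (-0.82, adjusted p = 0.0432). Of these MAP3K5 passed in H929 alone (adjusted p = 0.0448), and no substrate gene passed in the higher direction.

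The SGK1 substrates and glucocorticoid-induced genes had 15 of 27 genes tested, and 12 stood above 0 at days 2-3 (median 0.18) and 11 at days 4-5 (median 0.13). At days 4-5 the annexin gene ANXA1 stood at 0.72 and CXCR4 at 0.78, while NR3C1, the glucocorticoid receptor, stood at -0.15 and its target TSC22D3 (GILZ) at -0.09. In H929 and SKMM1 11 of 15 stood below 0 (median -0.18, against 0.01 for all genes). There TXNIP, the thioredoxin inhibitor, fell (-0.80, limma adjusted p = 0.00456), as did ANXA1 (-0.71, adjusted p = 0.0301), and TXNIP passed in H929 alone (adjusted p = 0.0298).

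AKT and SGK kinases restrain FOXO factors, and of the FOXO target list 10 of 19 genes were tested. Medians were -0.17 at days 2-3 (7 below, 3 above) and 0.20 at days 4-5 (2 below, 8 above), and without centring they were -0.38 and 0.04. At days 4-5 the list held IRS2 at 0.90, the death ligand gene TNFSF10 at 0.77, CDKN1B at -0.11 and catalase (CAT) at -0.42. TXNIP and CDKN1B fell in H929 and SKMM1, as given above, and TNFSF10 rose (1.38, limma adjusted p = 0.0214). TNFSF10 did not pass in H929 alone (0.86, adjusted p = 0.195). The targets thus passed in both directions.

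**Figure D4:**
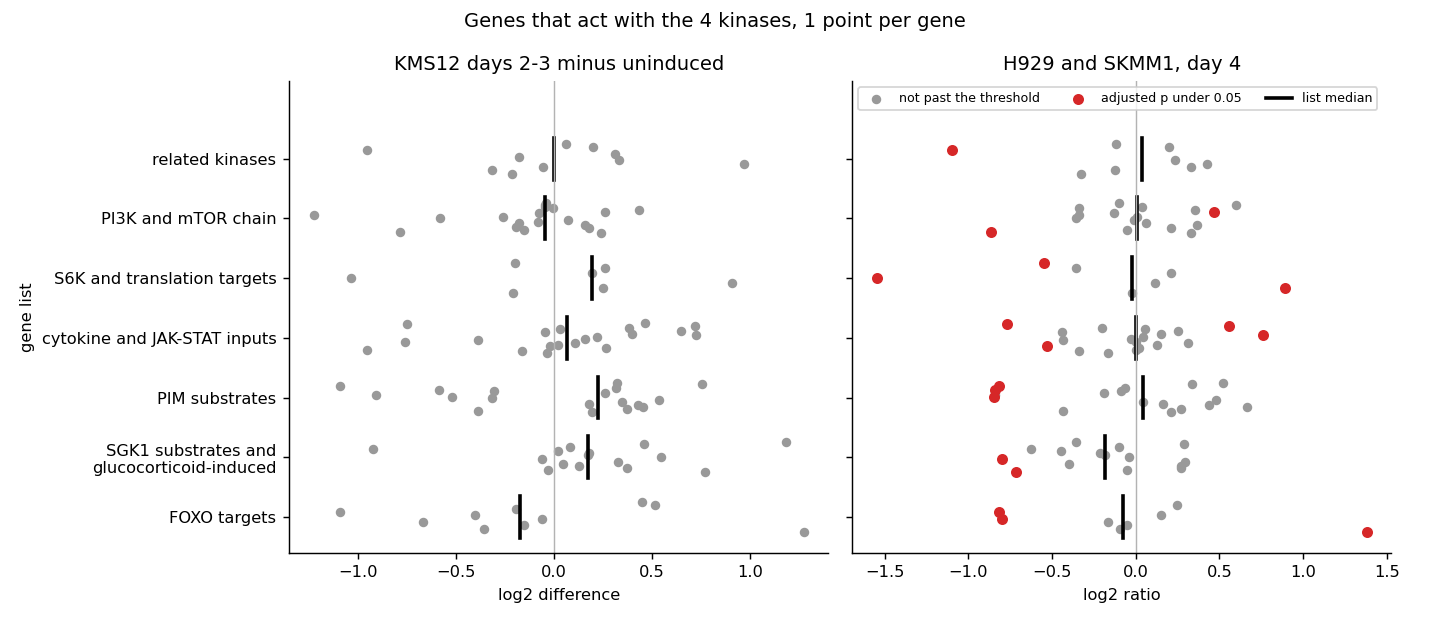
Each point is 1 gene of the 7 pathway lists (rows), placed by its log2 difference at KMS12 days 2-3 against untreated arrays (left) or its log2 ratio in H929 and SKMM1 at day 4 (right), with black bars at list medians and red points for a limma adjusted p under 0.05. No point is red on the left, and on the right EIF4E at -1.55 and TNFSF10 at 1.38 are the outermost called genes.

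The cell type markers could be read only as shifts, since the arrays hold no levels. Plasma cell markers had 8 of 8 genes tested, with a median of -0.33 at days 4-5 (8 of 8 below 0) and of -0.64 in H929 and SKMM1 (6 of 8 below 0, 4 passed lower). Their array medians ran from -0.01 to 0.10 on the untreated arrays, from -0.38 to -0.14 at days 4-5 and from -0.51 to -0.45 in H929. T cell markers had 5 tested genes of 7, all above 0 in each of these comparisons, with medians of 0.22 at days 4-5 and 0.56 in H929 and SKMM1, where 3 passed higher. Their array medians ran from -0.17 to 0.13 untreated, from 0.03 to 0.51 at days 4-5 and from 0.25 to 0.52 in H929. Both sets of marker calls can be read beside all genes in H929 and SKMM1, where 902 of 4124 passed (21.9%), 581 lower and 321 higher. The earlier B cell list (5 tested, 4 above 0) had a median difference of 0.45 at days 4-5, with array medians from -0.12 to 0.04 there and from -0.66 to 0.04 untreated. It was not raised in the other lines, with a median of 0.07 in H929 and SKMM1 (2 below, 2 above) and -0.285 in H929 alone (3 below, 2 above). The erythroid or stromal list (4 tested, 4 above 0) had a median of 0.75 at days 4-5, with array medians from 0.09 to 1.01 and from -0.45 to 0.08 untreated. Its median in H929 and SKMM1 was 0.23 (1 below, 3 above). CD68, the 1 myeloid marker tested, stood at 0.10 at days 4-5 and 0.14 in H929 and SKMM1. At days 2-3, where RPS6KB1 was low and SGK1 already high, the medians were -0.43 for plasma cell (6 of 8 below), 0.66 for earlier B cell (5 of 5 above), 0.37 for T cell (5 of 5 above) and 0.50 for erythroid or stromal markers (4 of 4 above), with CD68 at 0.39. Array medians in that window ran from -0.38 to -0.20, 0.19 to 0.65, -0.09 to 0.48 and 0.21 to 0.44 in the same order. The part of these shifts in the values of the 4 kinases was not tested.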

How the data were processed

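The authors deposited 1 table of log ratios, 15246 features by 13 arrays, taken here as log2 (the sources name no base, and values run from -9.78 to 7.51). Background correction, normalization and the rule for blank spots are not given in any source used. Per the labels, Cy5 always marked the IRF4 hairpin culture, and without dye swaps tests against 0 can hold a dye effect of the gene. Symbols came from the platform annotation, updated through the gene identifier to RefSeq (10128 identifiers found); 5073 features have no symbol.

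Features measured on at least 10 of 13 arrays and on at least 2 of 3 arrays of each KMS12 window were tested (6879, giving 2833 named genes and 1895 unnamed features). Each array was centred on their median, and features of a gene were averaged. Group means over all 13 arrays were fitted by limma 3.58.1 (R 4.3.3), two-sided, with p-values adjusted by Benjamini-Hochberg across the whole table and called under 0.05; the fit was tested on simulated data. No pair of arrays had more than 13 features with exactly equal deposited values. The number of arrays limits the precision.

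The members, gene lists and tests were chosen with earlier results of these data known. Named by rule were the members, IRF4, the 3 genes with the highest correlation to each member over at least 12 arrays and, per list, up to 4 genes past the threshold at days 2-3 and in H929 and SKMM1, with the 2 lowest and the 2 highest at days 4-5. List values in single genes at days 4-5 carry no test. Alternatives changed the centring, the filter, the averaging of features, the variance model, the baseline, the culture series as a block and each array left out.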

Additional observations from a re-analysis of the deposited data

Results flagged for a closer look

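The lines at day 4 (days 4-5 in KMS12) and the induced arrays of the KMS12 series were compared in pairs. In 6 of these comparisons every array of one group was above 0 and every array of the other below, and none of these differences was tested. For PIM1, H929 (mean -0.50, 2 arrays) stood 1.03 below SKMM1 (0.53, 1 array), a difference of -1.03. PIM1 also stood on opposite sides of 0 in 2 of the KMS12 series. The 3 induced arrays of series 1332 had a mean of -0.61. The 2 induced arrays of series 2046 had a mean of 0.22, a difference of -0.82. These series shared no day of induction, and the last array of series 1332 was later than any of series 2046. Series and day therefore cannot be told apart in this comparison. For SGK1, H929 stood 0.72 above SKMM1, and KMS12 at days 4-5 stood 1.37 above SKMM1. For RPS6KB1, KMS12 at days 4-5 stood 0.28 above H929 and 0.55 above SKMM1. Mean IRF4 was 63.4% of control in KMS12 at days 4-5, 27.2% in H929 and 24.6% in SKMM1. Line and depth of IRF4 loss cannot be told apart in the comparisons with KMS12.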

How the results depend on the processing

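Late KMS12 differences kept their direction under every alternative run for PIM2 (-1.17 to -0.82) and SGK1 (0.80 to 1.02). Both genes were chosen partly on these late values and the alternatives reuse the same arrays, so the kept direction is a description and no separate support. No member of any comparison lost a call, since none had one. The cause of the changes below was not tested. The early p-values of RPS6KB1 below are no independent evidence, since its early arrays entered a difference known when the members were chosen.

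Without centring, PIM1 stood at -0.20 at days 2-3, -0.12 in H929 and SKMM1 and 0.079 untreated, SGK1 at 0.091 untreated, and RPS6KB1 at -1.21 at days 2-3 (limma adjusted p = 0.0407) and -0.26 at days 4-5, with 339 genes called at days 2-3. With features on all 13 arrays, RPS6KB1 at days 2-3 was -0.94 (adjusted p = 0.0479), SGK1 untreated 0.068, and 170 genes were called at days 2-3 and 383 in H929. With no filter, PIM1 was -0.15 at days 2-3, -0.05 in H929 and SKMM1 and 0.11 untreated, SGK1 0.12 untreated and RPS6KB1 -0.26 at days 4-5. That setting called 3 genes at days 2-3, 1 between the windows and 9 in H929. With the median of features, PIM1 was -0.024 at days 2-3 and -0.015 in H929 and SKMM1, and SGK1 0.073 untreated.

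Against 0, days 2-3 gave -0.024 for PIM1, 0.63 for SGK1 (adjusted p = 0.0179), -0.81 for RPS6KB1 (adjusted p = 0.0129) and 904 calls; days 4-5 gave -0.82 for PIM2, 0.094 for RPS6KB1 and 4 calls. Against the untreated arrays, 446 genes were called in H929 and SKMM1 and 9 in H929.

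Leaving out 1 array at a time, PIM1 ran from -0.093 to 0.145 at days 2-3, -0.50 to 0.051 between the windows and -0.50 to 0.017 in H929 and SKMM1. RPS6KB1 ran from -1.14 to -0.90 at days 2-3 and 0.79 to 1.04 between the windows. SGK1 ran from -0.11 to 0.29 in H929 and SKMM1 and -0.075 to 0.022 untreated, and PIM2 from -0.23 to 0.23 in H929. Calls ran from 0 to 653 at days 2-3, 0 to 1 at days 4-5, 0 to 360 between the windows, 194 to 622 in H929 and SKMM1, 5 to 15 in H929 and 0 to 1 untreated.

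Arrays of the same culture series deviated together in part, with correlations from -0.12 to 0.37 over 9 pairs. They were 0.16, 0.28 and 0.37 in series 1332, and below 0 only between the early and late arrays of 1332b (-0.12) and 2046 (-0.09). The main fit did not pair arrays by series, although the labels use 1332 and 2046 as separate hairpin names. With the series as a replicate block, 0 genes were called in each KMS12 comparison, as without it. RPS6KB1 at days 2-3 stayed at -1.001 (adjusted p = 0.0803).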
